A study of Mus musculus with 25 samples.

Results

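The genes described here were 35 genes of surface and oral ectoderm, named as a list of epithelial and pituitary primordium genes and read in the mammillary neuroepithelium of mouse embryos. Each gene was represented by its brightest single-symbol transcript cluster, the set of probes that stands for 1 transcript on the array, and all 35 had one among 18820 named genes. The list was selected on earlier results of the comparison between genotypes in these same arrays. Differences between genotypes are therefore given as descriptions with their errors. Counts of genes that pass limma tests of this contrast stand beside the share over all clusters, and nothing is read from them. The variation among embryos of a single genotype was not part of that comparison and makes up most of the results.

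Total RNA of dissected mammillary neuroepithelium, a wall of the caudal hypothalamus, was hybridised to 25 arrays, 12 from wild-type embryos (WT) and 13 from Lhx5 mutant embryos (KO), all C57BL/6 at E10.5. Per the methods of the study the mutants were Lhx5 fl/fl embryos, whose floxed exons were still in place and not recombined by Cre, a hypomorphic allele carried by every cell of the embryo. Replicates are biological replicates per the labels. Array medians of the log2 values lay between 4.64 and 4.76. The deposited mean of KO replicates 1 to 10 equalled the mean of KO replicates 11 to 13 on nearly every probe set, with a median absolute difference of 1.33e-06. Every difference between genotypes is thus set by KO replicates 11 to 13 against the 12 WT arrays, and KO replicates 1 to 10 add no evidence on its direction. How KO replicates 1 to 10 vary among themselves is a separate measurement, although the sources used here do not say whether their spread was adjusted as well. WT and KO replicates 1 to 10 are treated here as separate sets of arrays.

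Surface ectoderm is the outer epithelial sheet of the embryo, and its oral part folds up under the hypothalamus to form Rathke's pouch, the primordium of the anterior pituitary. Epithelial cells are held together by E-cadherin at adherens junctions, by desmosomes anchored to keratin filaments and by claudins at tight junctions. Trp63, the grainyhead-like factors and AP-2 factors run the epithelial programme, the splicing factors Esrp1 and Esrp2 select epithelial exons, and repressors of the ZEB and SNAIL families silence many of the same genes through E-boxes. Neuroepithelium loses E-cadherin when the neural tube forms, so most of these genes are not markers of hypothalamic progenitors. Signal levels were compared with the median cluster. The markers of neural progenitors and of mammillary and hypothalamic tissue were all brighter than it (9 of 9 and 9 of 9 genes). So were those of mesenchyme (12 of 12), endothelium (10 of 10) and erythroid cells (7 of 7), so a level above it does not tell these tissues apart. Of the 35 epithelial genes 21 were above that median (4.69 on the log2 scale) and 14 below it. The level of a gene was its mean over all 25 arrays, and Foxe1 and Tmem184a passed the median only through their mutant values. This split describes the signal of the probe sets and does not rank transcripts by abundance. The 14 dimmer genes included Krt5 and Krt14, the keratin pair of stratified epithelium, and the factors Grhl1, Ovol1, Ovol2, Ehf and Elf3.

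The epithelial genes varied more among embryos of the same genotype than most of the array. The median standard deviation (SD) of the 35 genes was 0.255 (log2) over the 12 WT arrays, against 0.143 over all 28940 clusters. Over KO replicates 1 to 10 it was 0.309, against 0.149 over all clusters. Among the 21 brighter genes it was 0.275 in WT and 0.413 in KO replicates 1 to 10, where brighter clusters as a whole had 0.135 and 0.147. Such a spread was not particular to this list. Over marker genes of other tissues the SD in WT ran from 0.22 to 0.39 (mesenchyme) and from 0.22 to 0.30 (endothelium). It ran from 0.19 to 0.67 in erythroid genes and from 0.057 to 0.91 in neural progenitor genes. The largest SD in WT belonged to Pitx1, a homeobox factor of oral ectoderm (0.96), followed by the tight junction gene Cldn1 (0.64), Cldn6 (0.58) and the simple-epithelium keratin Krt18 (0.50).

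**Figure D1:**
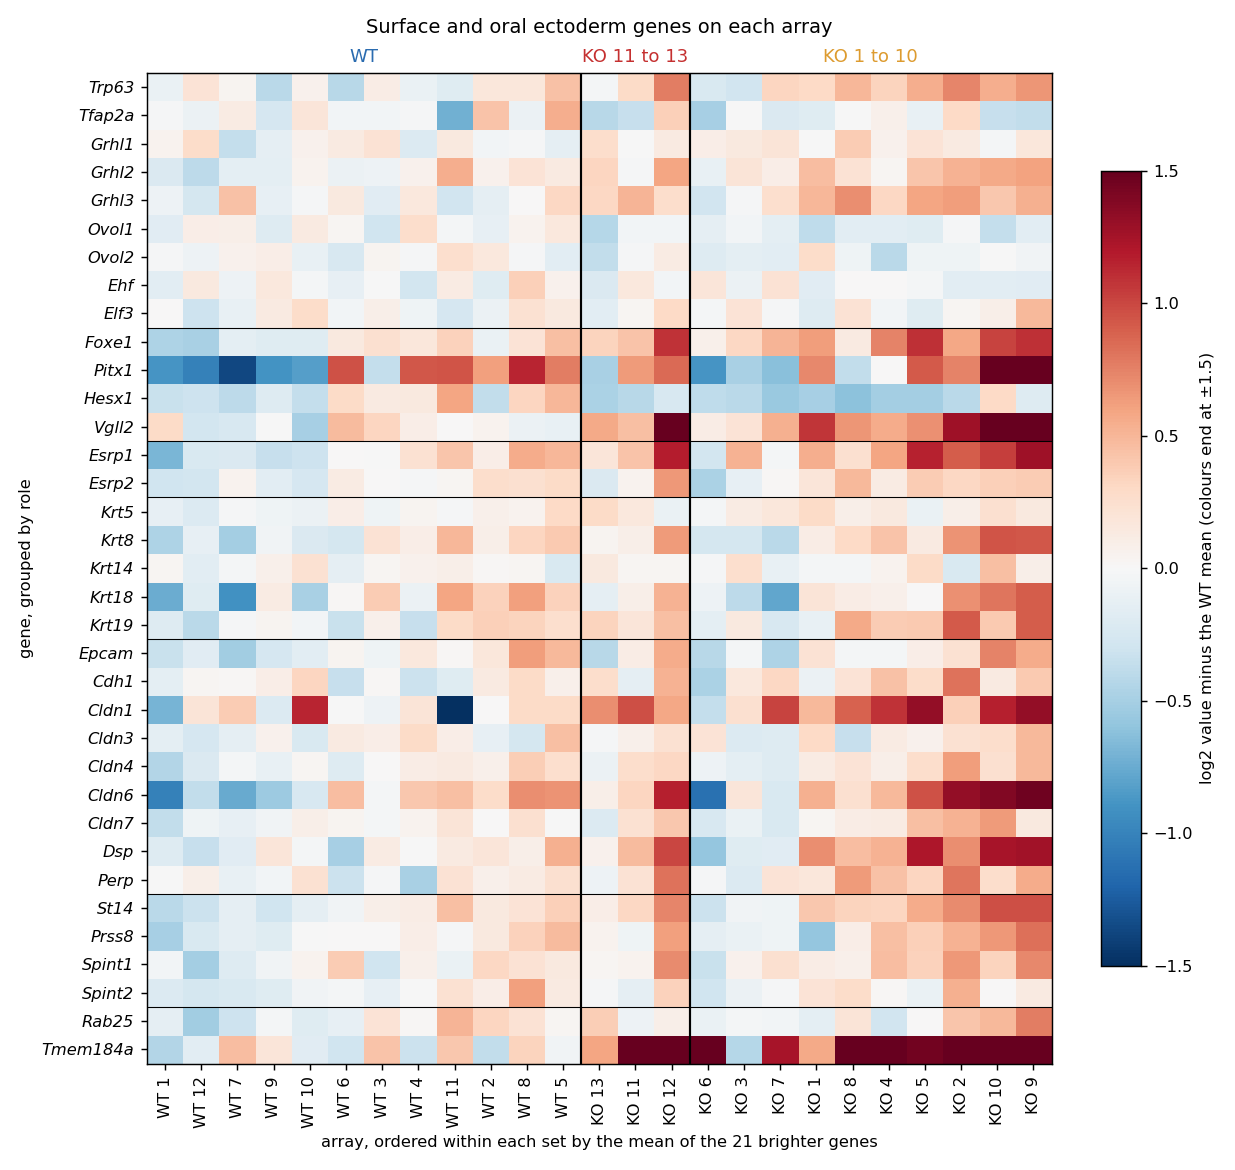
Log2 value minus the WT mean (colour) for the 35 genes (rows, grouped by role) on the 25 arrays (columns, in 3 sets, ordered within a set by the mean of the 21 brighter genes, so that the left to right order follows the values shown). Whole columns of epithelial genes are mostly red on WT 5, WT 8, KO 12, KO 2, KO 9 and KO 10 and mostly blue on WT 1 and KO 6.

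The genes also moved together from embryo to embryo. Over the 595 pairs of the 35 genes the median Pearson correlation was 0.28 across the 12 WT arrays and 0.43 across KO replicates 1 to 10, whereas 199994 and 199996 pairs drawn from all clusters had medians of 0.0015 and 0.0046. Over the 210 pairs of the 21 brighter genes the medians were 0.37 and 0.64, and 82.9% and 97.6% of the pairs were above 0, against medians of 0.014 and 0.010 for pairs of brighter clusters in general. Over the 17 brighter genes that the study does not list as changed, which leave out Foxe1 and Tmem184a, the medians were 0.41 and 0.69. Genes of a list are not independent of each other, and correlations within a set share the same few arrays, so these values are descriptions.

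Single arrays carried the pattern as a block. The level of the 21 brighter genes on an array was summarised as the mean of their values minus the WT mean of each gene. In WT it ran from -0.38 on WT 1 to 0.36 on WT 5 and 0.36 on WT 8. On WT 1, 0 of the 21 genes were above their WT mean, and on WT 5 and WT 8 20 of the 21 were, while 48.5%, 49.8% and 49.2% of all clusters were above their own WT mean on these arrays. Among KO replicates 1 to 10 the mean ran from -0.23 on KO 6 to 0.86 on KO 9. On KO 6 and KO 3, 1 of 21 genes exceeded the mean of the 10 arrays, and on KO 9 20 of 21 did, with 50.7%, 47.0% and 47.9% of all clusters above their mean. The level of the 21 genes was close to unrelated to the median of the array (r = 0.19 in WT and 0.11 in KO replicates 1 to 10) and to the mean correlation of the array with the others (r = 0.034 and -0.13). The amount of ectoderm attached to each dissected piece is not recorded in the labels, and in bulk tissue fewer cells of a type and less RNA per cell cannot be told apart.

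**Figure D2:**
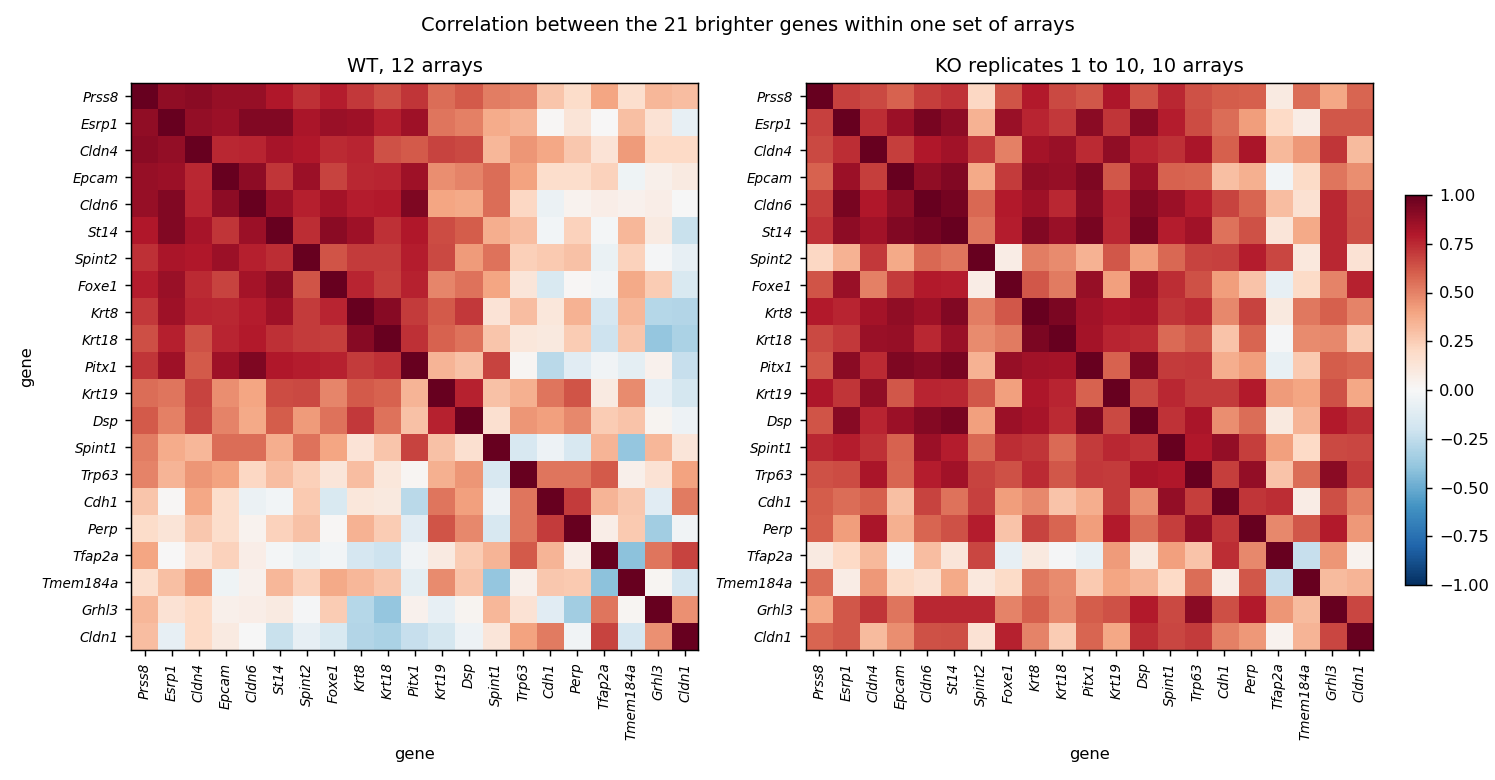
Pearson's r over arrays (colour) between the 21 brighter genes in WT (left, 12 arrays) and in KO replicates 1 to 10 (right, 10 arrays), with genes in the same order, by their correlation with the mean of the others in WT. In WT the upper left block of 13 genes is red and the last 8 genes are pale, and in KO replicates 1 to 10 the red area covers nearly the whole square apart from Tfap2a, Tmem184a and Spint2.

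In WT a block of 13 among the 21 brighter genes was set apart by a cut made after the values were seen. For each gene, r was taken with the mean of the other 20. It exceeded 0.5 for 13 genes, namely Prss8, Esrp1, Cldn4, Epcam, Cldn6, St14, Spint2, Foxe1, Krt8, Krt18, Pitx1, Krt19 and Dsp. The other 8 were Spint1, Trp63, Cdh1, Perp, Tfap2a, Tmem184a, Grhl3 and Cldn1. Within the first block the median pairwise r was 0.75 in WT and 0.76 in KO replicates 1 to 10, which the split did not use. Within the second block it was 0.21 in WT and 0.63 in KO replicates 1 to 10, and between the blocks 0.17 and 0.58. No test of the difference between the sets was run.

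The gene closest to the mean of the others in WT was Prss8, a membrane-anchored serine protease of epithelia (r = 0.97, and 0.78 in KO replicates 1 to 10). Next came Esrp1, the epithelial splicing factor (0.92 and 0.87), the tight junction gene Cldn4 (0.91 and 0.87) and Epcam, the epithelial cell adhesion molecule (0.90 and 0.83). In KO replicates 1 to 10 the closest was St14, the protease matriptase (0.98, and 0.86 in WT), then Cldn6 (0.93 and 0.88 in WT) and Dsp, the desmosomal plaque protein desmoplakin (0.93 and 0.61 in WT). The keratin partners Krt8 and Krt18 gave 0.79 and 0.72 in WT and 0.91 and 0.81 in KO replicates 1 to 10. Trp63, the master factor of stratified epithelium, gave 0.41 in WT and 0.89 in KO replicates 1 to 10, and Perp, a desmosomal gene that it is known to activate, 0.23 and 0.73. Grhl3 gave 0.12 and 0.77, Cdh1 (E-cadherin) 0.23 and 0.62, and Cldn1 -0.010 and 0.65. The value in KO replicates 1 to 10 was also taken without the 2 arrays whose mean of the other genes lay farthest from its median. It was then 0.37 for Cdh1 and 0.30 for Cldn1, and 0.82 for Trp63, 0.65 for Perp and 0.65 for Grhl3. Tfap2a (AP-2 alpha), which neural crest also expresses, followed the others weakly in each set (0.18 and 0.19), as did the transmembrane protein gene Tmem184a (0.15 and 0.36).

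Of the 14 dimmer genes, 4 exceeded 0.5 in both sets against the mean of the 21 brighter ones. These were Esrp2 (0.83 in WT and 0.85 in KO replicates 1 to 10), the tight junction gene Cldn7 (0.75 and 0.84), Grhl2 (0.70 and 0.83) and Rab25, a small GTPase of epithelial membrane traffic (0.63 and 0.72). Vgll2, a cofactor of TEAD factors present in pharyngeal and oral epithelium, gave -0.063 in WT and 0.85 in KO replicates 1 to 10. Krt5 gave 0.77 in WT and 0.16 in KO replicates 1 to 10. The Ets factor Ehf, among the dimmest of the list, gave 0.32 and -0.70. The remaining 7 dim genes gave values between -0.18 and 0.69 over both sets, with Hesx1 highest (0.69 in WT and 0.44 in KO replicates 1 to 10).

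**Figure D3:**
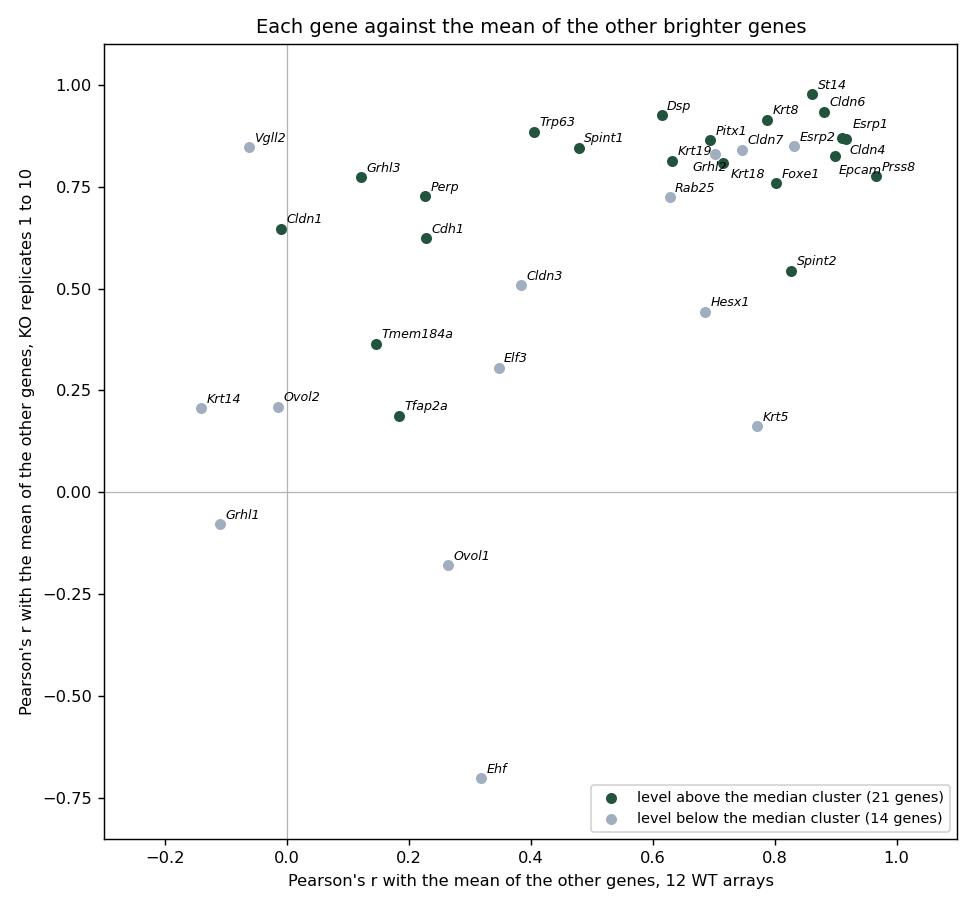
Each gene's Pearson's r with the mean of the other brighter genes over the 12 WT arrays (horizontal axis) and over KO replicates 1 to 10 (vertical axis), for the 21 genes above (green) and the 14 below (grey) the median cluster. Of the 35 genes, 17 lie above 0.5 on both axes, and Vgll2, Grhl3, Cldn1, Perp and Cdh1 are high on the vertical axis alone.

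Correlations of 9 pairs of genes with a known partnership or a neighbouring place in the genome were tested in both sets, 18 relations in all, with 100000 permutations and Benjamini-Hochberg adjustment over the 18. Krt8 and Krt18, whose proteins form filaments together, gave r = 0.91 (Spearman's rho = 0.89) over the 12 WT arrays, with permutation p = 4e-05 and adjusted p = 0.00036. Without the 2 arrays farthest from the median of Krt8, r was 0.83. In each pair these 2 arrays were picked by the gene named first, and not by its partner. In KO replicates 1 to 10 they gave r = 0.94 (rho = 0.90, p = 4e-05, adjusted p = 0.00036 by permutation). St14 and Prss8, 2 proteases that act in the same cascade, gave r = 0.80 in WT (rho = 0.80, permutation p = 0.00159, adjusted 0.00715) and 0.72 in KO replicates 1 to 10 (rho = 0.76, permutation p = 0.0196, adjusted 0.0402). Esrp1 and Esrp2 gave r = 0.80 in WT (rho = 0.79, permutation p = 0.0023, adjusted 0.00828) and 0.71 in KO replicates 1 to 10 (rho = 0.62, permutation p = 0.0201, adjusted 0.0402). Epcam and Cldn7, whose proteins bind each other, gave 0.64 (rho = 0.72, permutation p = 0.0252, adjusted 0.042) and 0.77 (rho = 0.84, permutation p = 0.00917, adjusted 0.0236). Adjusted permutation p for rho ran from 0.0045 to 0.0338 over these pairs, with the exception of Esrp1 and Esrp2 in KO replicates 1 to 10 (0.0925), whose r was 0.41 without the 2 farthest arrays. The other values of r without those arrays lay between 0.62 and 0.94. All 18 relations were tested against no correlation, and not against the general correlation of the list. Within the first block of brighter genes the median pairwise r was 0.75 in WT and 0.76 in KO replicates 1 to 10. St14 and Prss8 lay above the former and below the latter, and Krt8 and Krt18 above both. Whether partners were closer than other pairs was not tested, so these p-values do not single out a partnership.

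Other pairs passed in KO replicates 1 to 10 and not in WT, without a test of that difference. Trp63 and Perp gave r = 0.53 in WT (rho = 0.61, permutation p = 0.0741, adjusted 0.103) and 0.88 in KO replicates 1 to 10 (rho = 0.87, p = 0.00066, adjusted 0.00396 by permutation). St14 and its inhibitor Spint1 gave 0.36 in WT (rho = 0.41, permutation p = 0.244, adjusted 0.275) and 0.79 (rho = 0.73, permutation p = 0.00665, adjusted 0.0199), and 0.55 and 0.53 without the 2 farthest arrays. Trp63 and Cldn1, which lie near each other on the same chromosome, gave 0.40 (rho = 0.55, permutation p = 0.194, adjusted 0.232) and 0.70 (rho = 0.61, permutation p = 0.0256, adjusted 0.042). The latter fell to 0.015 without the 2 arrays farthest from the median of Trp63, so it rests on those arrays. The neighbours Cldn3 and Cldn4 gave 0.25 and 0.55 and the neighbours Esrp2 and Cdh1 0.052 and 0.62, with adjusted p for r between 0.0994 and 0.872 by permutation.

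Sequences before the start of transcription were read for every gene of the list with a promoter at hand, whether or not it moved with the others. RefSeq promoters (GRCm38.p6) were at hand for 22 of the 35 genes, and the 250 bases before the start were searched on both strands. A gene with more than 1 promoter (4 of the 22) counted where any of them held the motif, as did every gene of the background. The E-box CAGGTG, the element bound by ZEB and SNAIL repressors, was present in 12 of the 22 genes (54.5%), namely Cldn4, Cldn6, Cldn7, Elf3, Epcam, Grhl3, Krt5, Krt8, Krt18, Rab25, Spint2 and Tmem184a. It was present in 19.4% of all 27025 genes with such a promoter and in 19.1% of protein-coding genes. In a longer list of further epithelial genes it was present in 8 of 17 (47.1%). The AP-2 motif GCCNNNGGC was present in 7 of 22 (31.8%, against 15.4% of all genes) and the grainyhead-like motif AACCNGTT in 1 of 22, Rab25 (4.55%, against 2% of all genes). A match of letters is a description and not a binding site.

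The stretches below are those of every gene of the tightly correlated WT block that had a promoter at hand, 7 of the 13, and of Tmem184a, the gene with the largest difference between genotypes. The E-box was present in 6 of the 7 and not in Dsp. Foxe1, Pitx1, Esrp1, Krt19, St14 and Prss8 had no promoter here. Each is the 250 bases before the start, 5′ to 3′ on the strand of the gene in GRCm38.p6, with the E-box in capitals (CAGGTG, or CACCTG where it lies on the other strand). Of the 2 starts of Tmem184a, the one shown was picked by its number of E-boxes.
Epcam, chr17:87635729-87635978, plus strand, with 2 E-boxes: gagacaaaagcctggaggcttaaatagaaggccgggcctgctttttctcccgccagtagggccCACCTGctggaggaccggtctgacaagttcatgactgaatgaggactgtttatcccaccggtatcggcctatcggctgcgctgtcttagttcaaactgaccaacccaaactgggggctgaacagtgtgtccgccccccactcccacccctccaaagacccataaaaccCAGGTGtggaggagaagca
Cldn4, chr5:134946935-134947184, minus strand, with 1 E-box: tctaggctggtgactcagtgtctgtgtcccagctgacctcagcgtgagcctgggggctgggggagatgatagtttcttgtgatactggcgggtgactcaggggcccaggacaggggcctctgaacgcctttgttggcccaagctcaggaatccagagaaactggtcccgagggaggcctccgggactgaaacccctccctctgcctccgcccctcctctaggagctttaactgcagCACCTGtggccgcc
Cldn6, chr17:23679115-23679364, plus strand, with 1 E-box: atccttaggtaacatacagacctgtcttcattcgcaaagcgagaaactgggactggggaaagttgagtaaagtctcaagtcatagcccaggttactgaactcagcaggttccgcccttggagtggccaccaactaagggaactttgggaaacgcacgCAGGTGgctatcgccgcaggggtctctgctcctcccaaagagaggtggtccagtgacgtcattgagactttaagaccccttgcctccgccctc
Krt8, chr15:102004343-102004592, minus strand, with 1 E-box: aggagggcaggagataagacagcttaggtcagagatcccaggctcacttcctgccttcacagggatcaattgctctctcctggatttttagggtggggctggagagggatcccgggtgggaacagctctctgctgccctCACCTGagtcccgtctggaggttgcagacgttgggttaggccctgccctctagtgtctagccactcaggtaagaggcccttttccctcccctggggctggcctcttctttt
Krt18, chr15:102027966-102028215, plus strand, with 1 E-box: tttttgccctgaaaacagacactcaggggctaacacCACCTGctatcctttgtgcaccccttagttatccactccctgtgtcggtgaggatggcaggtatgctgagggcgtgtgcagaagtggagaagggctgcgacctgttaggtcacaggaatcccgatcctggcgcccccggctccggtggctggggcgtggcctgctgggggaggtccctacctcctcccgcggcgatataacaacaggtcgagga
Spint2, chr7:29281978-29282227, minus strand, with 3 E-boxes: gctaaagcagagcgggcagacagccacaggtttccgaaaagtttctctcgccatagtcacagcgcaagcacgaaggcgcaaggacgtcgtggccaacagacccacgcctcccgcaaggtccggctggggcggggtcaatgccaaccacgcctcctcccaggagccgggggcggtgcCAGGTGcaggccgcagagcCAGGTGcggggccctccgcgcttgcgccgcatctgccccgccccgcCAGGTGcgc
Dsp, chr13:38151044-38151293, plus strand, with 0 E-boxes: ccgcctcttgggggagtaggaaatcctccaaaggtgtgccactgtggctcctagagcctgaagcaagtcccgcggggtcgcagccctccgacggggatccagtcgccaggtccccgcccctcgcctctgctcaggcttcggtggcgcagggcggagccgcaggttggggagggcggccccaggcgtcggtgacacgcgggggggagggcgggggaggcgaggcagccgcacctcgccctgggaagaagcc
Tmem184a, chr5:139814284-139814533, minus strand, the farther upstream of 2 starts, with 2 E-boxes: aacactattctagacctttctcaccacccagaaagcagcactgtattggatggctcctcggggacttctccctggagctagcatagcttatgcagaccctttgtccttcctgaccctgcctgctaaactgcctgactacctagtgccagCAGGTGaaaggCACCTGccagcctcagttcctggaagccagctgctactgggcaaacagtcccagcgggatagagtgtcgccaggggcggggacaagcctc
Among these stretches the E-box nearest to a start lay 3 bases before it in Spint2, 8 in Cldn4 and 13 in Epcam, and the one farthest from a start lay 208 bases before it in Krt18. Krt8 and Krt18 lie next to each other on chromosome 15 and are read in opposite directions, each from a promoter of its own.

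The comparison of KO with WT asked which genes differed between Lhx5 mutant and wild-type tissue. Of the 35 epithelial genes 30 were higher and 5 lower on average in KO, with a median difference of 0.20 on the log2 scale, against 0.0052 over all clusters. With a term for KO replicates 1 to 10, limma called 0 of the 35 at an adjusted p below 0.05, where it called 7 of 28940 clusters (0.0242%). At an unadjusted p below 0.05, 6 were higher and 0 lower, against 6.2% of all clusters higher and 4.15% lower. In the 15 arrays of WT and KO replicates 11 to 13 alone, 9 were higher at that level (6.36% of all clusters) and 0 were called after adjustment, where 6 clusters were (0.0207%). With genotype as the only term, which counts KO replicates 1 to 10 as further evidence, 11 were called higher and 2 lower (Ovol1 and Hesx1), against 9.68% and 6.99% of all clusters. Since the list was selected on this contrast, nothing is read from these shares.

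A single mutant array stood apart. At least 1 of KO replicates 11 to 13 lay above every WT array for 19 of the 35 genes (22.9% of all clusters), and at least 1 below for 3, namely Hesx1, Ovol1 and Ovol2 (19.8% of all clusters). On KO 12 alone, 18 of the 35 genes lay above every WT array, where 7.78% of all clusters did. On KO 11 and on KO 13 2 genes each did, against 7.72% and 12.6% of all clusters. The mean of the 21 brighter genes was 0.74 above WT on KO 12, 0.30 on KO 11 and 0.069 on KO 13, and the WT arrays reached 0.36. Foxe1 and Tmem184a are among the 21 only through their mutant values, since their WT means of 4.37 and 4.66 lay below the median cluster. Over the 17 brighter genes that the study does not list as changed, which leave both out, the mean was 0.63 on KO 12, 0.17 on KO 11 and -0.021 on KO 13, against -0.34 to 0.38 in WT. Without KO 12 the median difference over the 35 genes was 0.075 and 24 of 35 were above 0. Without KO 13 it was 0.32 with 33 above 0. Esrp2, Krt18, Epcam, Prss8, Spint2 and Elf3 turned from higher to lower in KO without KO 12 (differences from -0.15 for Epcam to -0.0061 for Prss8).

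**Figure D4:**
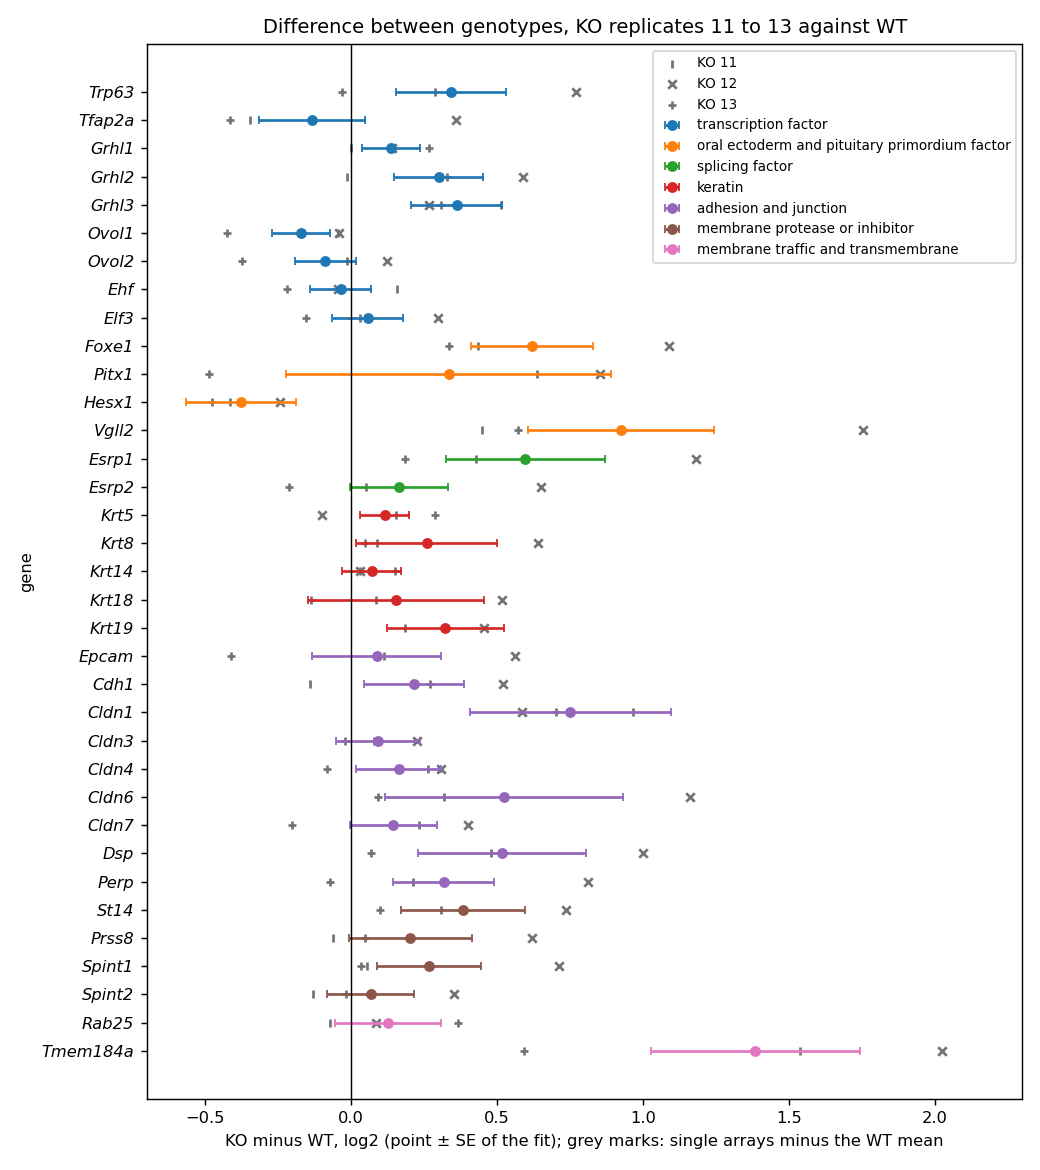
Difference between genotypes on the log2 scale (point, with its standard error from limma as the bar) for the 35 genes, coloured by role, with the 3 mutant arrays that set it as grey marks. The mark of KO 12 lies farthest to the right for most genes, and Tmem184a is the only gene whose 3 marks all exceed every WT array.

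Tmem184a had the largest difference of the list. It was between 4.22 and 5.13 in WT (median 4.56), and at 6.20, 6.69 and 5.26 on KO 11, 12 and 13. All 3 mutant values lay above every WT value, as for 1 of 35 genes and 0.536% of all clusters. The difference was 1.39 ± 0.36 (SE), 2.61-fold. KO replicates 1 to 10 spread from 4.23 to 6.81 (median 6.24), with an SD 2.29 times that of WT, and their lowest array, KO 3, lay within the WT range.

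The oral ectoderm factors differed among themselves. Vgll2 was at 3.14 to 4.12 in WT (median 3.64) and at 4.09, 5.39 and 4.21 on KO 11, 12 and 13, a difference of 0.92 ± 0.32. KO 12 stood more than 1 log2 unit above the other 2, and KO 11 lay within the WT range. Its SD over KO replicates 1 to 10 was 0.70, 2.54 times that of WT. Foxe1, a forkhead factor of the thyroid and oral ectoderm, was at 3.89 to 4.82 in WT (median 4.40) and at 4.81, 5.46 and 4.71 in the 3 mutants, with KO 12 alone above the WT range (difference 0.62 ± 0.21).

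Pitx1 and Hesx1 mark Rathke's pouch, which lies against the ventral hypothalamus. Pitx1 ran from 3.46 to 5.97 in WT (median 4.96), a span of 2.51 log2 units among embryos of a single genotype. The mutant values of 5.47, 5.68 and 4.34 lay inside that span, and the difference of 0.33 ± 0.56 was smaller than its error. Hesx1, a repressor of the early pituitary, went the other way. It was at 2.90 to 3.88 in WT (median 3.26) and at 2.88, 3.05 and 2.82 in the mutants, all below the median cluster. KO 13, and KO 11 by little, lay below every WT array (difference -0.38 ± 0.19).

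Of the splicing factors, Esrp1 was at 4.62 to 5.86 in WT (median 5.31) and at 5.73, 6.49 and 5.49 in the mutants. KO 12 exceeded the WT range and the others did not (difference 0.60 ± 0.27). Esrp2 showed the same order, with 4.25, 4.85 and 3.99 against 3.91 to 4.49 in WT (median 4.22) and a difference of 0.16 ± 0.17.

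**Figure D5:**
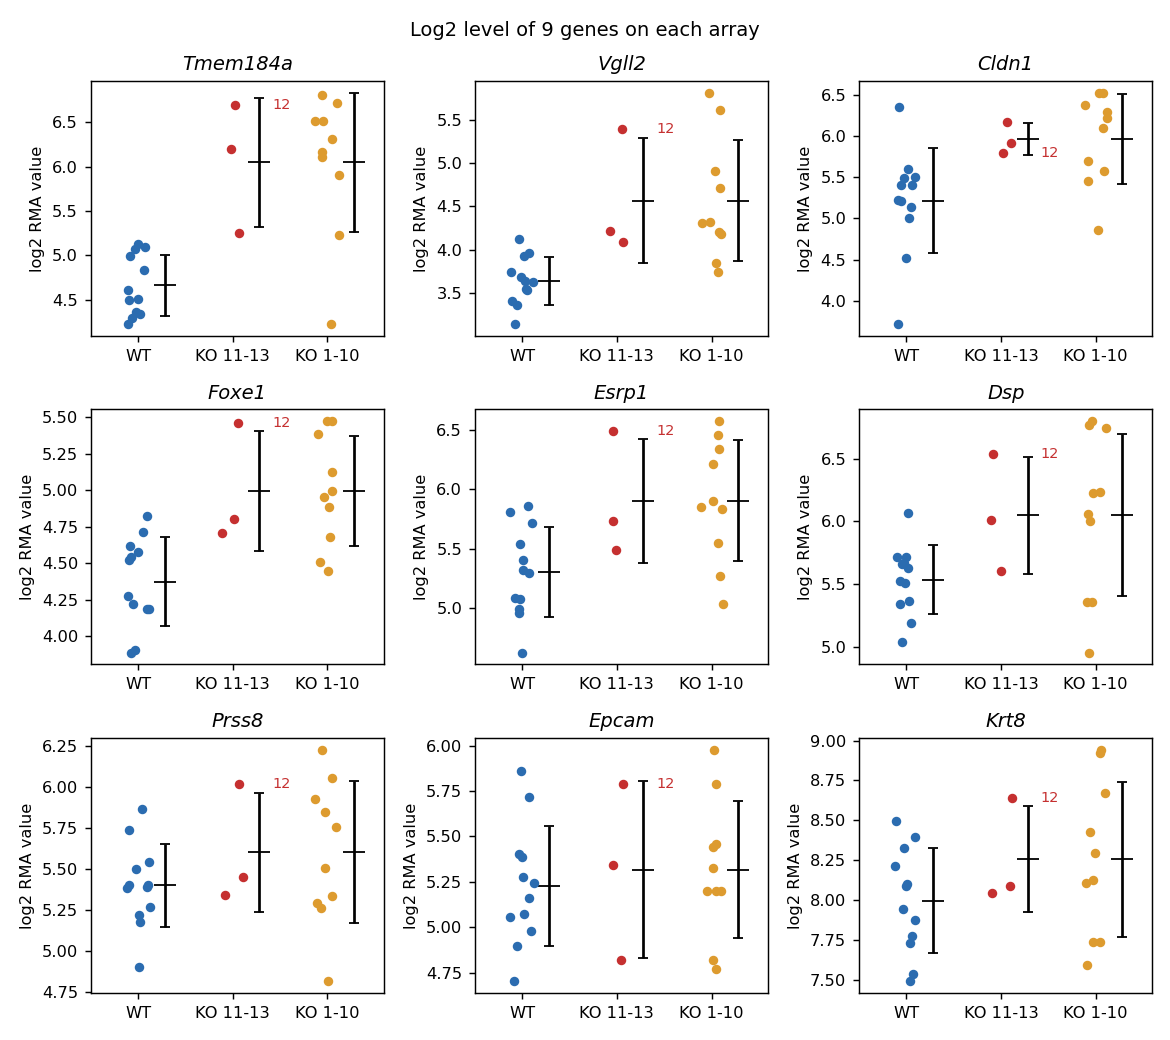
Log2 RMA value of 9 genes on each array (points) in WT, KO replicates 11 to 13 and KO replicates 1 to 10, with the mean and SD of each set as a bar at its right and KO 12 marked. The means of the 2 mutant sets coincide by construction of the deposited values, and KO 12 is the highest of the 3 mutant arrays for every gene shown except Cldn1.

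Junction genes were all higher on average in KO, by 0.088 (Epcam) to 0.75 (Cldn1). Cldn1, a tight junction gene of the epidermal barrier, ranged from 3.71 on WT 11 to 6.35 on WT 10 (median 5.31). The 3 mutants were at 6.18, 5.80 and 5.92, close together and within that range, and the difference was 0.75 ± 0.34. Cldn1 was the only 1 of the 5 largest differences in which KO 12 was the lowest of the 3 mutant arrays. Dsp was at 5.04 to 6.07 in WT (median 5.57) and at 6.01, 6.53 and 5.60 in the mutants (0.52 ± 0.29), and its SD over KO replicates 1 to 10 was 2.37 times that of WT. A second, dimmer cluster of Dsp gave 0.15 ± 0.11. Cldn6, a claudin of embryonic epithelia, was at 6.12 to 7.82 in WT (median 7.25) and at 7.45, 8.29 and 7.22 in the mutants (0.52 ± 0.41). Perp was at 5.12 to 5.85 in WT (median 5.64) and reached 6.41 on KO 12, with 5.81 and 5.53 on the others (0.32 ± 0.17). Cdh1 was at 5.47 to 6.14 in WT (median 5.84) and at 5.67, 6.33 and 6.08 in the mutants (0.22 ± 0.17). For Epcam, Cldn3 and Cldn4 no mutant array of the 3 left the WT range, and for Cldn7 only KO 12 did (4.80 against at most 4.64).

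Keratins were all higher on average in KO, by 0.070 (Krt14) to 0.32 (Krt19). Krt8 was at 7.49 to 8.49 in WT (median 8.01) and at 8.09, 8.64 and 8.04 in the mutants, so that KO 12 alone was above the WT range (0.26 ± 0.24). Krt18 was at 6.48 to 8.001 in WT (median 7.46) and at 7.47, 7.91 and 7.25 in the mutants, all within that range (0.15 ± 0.30). Krt19, another keratin of simple epithelium, reached 5.20 on KO 12 against at most 5.10 in WT (0.32 ± 0.20). Krt5 and Krt14 stayed within the WT range on all 3 mutant arrays.

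Membrane proteases and their inhibitors differed by 0.067 (Spint2) to 0.38 (St14). St14 was at 5.13 to 5.99 in WT (median 5.55) and at 5.85, 6.27 and 5.64 in the mutants (0.38 ± 0.21). Prss8 was at 4.91 to 5.87 in WT (median 5.40) and at 5.34, 6.02 and 5.45 (0.20 ± 0.21). Spint1 gave 5.69 on KO 12 against at most 5.36 in WT (0.27 ± 0.18). In each of these 3 genes KO 12 alone exceeded the WT range. Rab25 stayed within it on all 3 arrays (0.13 ± 0.18).

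The transcription factors had a median difference of 0.057 over 9 genes, with 5 higher and 4 lower. Grhl3 was at 4.62 to 5.35 in WT (median 4.86) and at 5.42, 5.17 and 5.21 in the mutants, where KO 11 and not KO 12 passed the WT range (0.36 ± 0.16). Trp63 was at 5.31 to 6.16 in WT (median 5.78) and at 6.01, 6.49 and 5.69 (0.34 ± 0.19), and Grhl2 exceeded the WT range on KO 12 by little (4.78 against 4.74, difference 0.30 ± 0.15). Tfap2a was at 6.07 to 7.34 in WT (median 6.76) and at 6.44, 7.15 and 6.38 in the mutants (-0.13 ± 0.18). Ovol1 and Ovol2, zinc finger repressors that keep cells epithelial, differed by -0.17 ± 0.10 and -0.089 ± 0.10, and each was below every WT array on KO 13. Grhl1, Ehf and Elf3 differed by 0.13, -0.036 and 0.057, each with an error of 0.10 to 0.12.

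The differences of the 5 genes that the study lists as changed were set beside the general epithelial level. With the mean of the 17 other brighter genes as a covariate, an alternative added after the data were seen, the difference of Tmem184a was 1.19 ± 0.35 and that of Cldn1 0.61 ± 0.35. That of Vgll2 was 0.62 ± 0.25, of Foxe1 0.39 ± 0.14 and of Esrp1 0.25 ± 0.12. The largest relative drop was that of Esrp1, from 0.60, and the smallest that of Tmem184a, from 1.39. All 5 stayed above 0. The covariate is made of genes of the same list, so these values are a description.

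Further epithelial genes outside the list were read for comparison. Of 36 measured genes (of 40 listed) 27 were higher and 9 lower in KO, 0 were called with the term for KO replicates 1 to 10 and the median difference was 0.081. The largest in size were Klf5, a zinc finger factor of proliferating epithelium (0.48 ± 0.17), the keratin Krt7 (0.35 ± 0.23) and Tfap2b, which is also a neural crest gene (-0.33 ± 0.38). The mean level of their 11 brighter members followed that of the 21 genes with r = 0.51 (rho = 0.28) in WT and 0.77 (rho = 0.72) in KO replicates 1 to 10, and with 0.38 and 0.82 without the 2 farthest arrays. Chosen after their values were seen, P-cadherin (Cdh3, 0.79 and 0.81), the clathrin adaptor gene Ap1m2 (0.83 and 0.87) and the junctional adhesion gene F11r (0.68 and 0.91) were close to the 21 genes in both sets.

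Markers of other tissues that a dissected piece can hold were read in the same way. Of all 14470 clusters above the median, 5825 were higher and 8645 lower in KO, with a median of -0.025. Neural progenitor genes were lower in KO for 9 of 9 (median -0.18), and the mean level of the 9 gave r = -0.43 with the epithelial level in WT (-0.027 without the 2 farthest arrays) and -0.61 in KO replicates 1 to 10 (-0.45). Their mean level spanned -0.40 to 0.35 in WT and -0.40 to -0.088 on KO replicates 11 to 13. Of the foregut and pharyngeal endoderm genes, part of which are also used by oral epithelium, 6 of 10 were higher in KO with a median of 0.038. Only 3 of the 10 (Sox17, Pax9 and Foxa1) were above the median cluster, and the mean level of these 3 gave r = 0.32 in WT (-0.070 without the 2 farthest) and 0.79 in KO replicates 1 to 10 (0.60). It spanned -0.24 to 0.39 in WT and 0.23 to 0.36 on KO replicates 11 to 13. Their part in the epithelial differences was not tested.

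For the remaining lists, r is that of the mean level of the genes above the median cluster with the epithelial level, first in WT and then in KO replicates 1 to 10, and values without the 2 farthest arrays follow in the same order. Mesenchyme genes were higher on average in KO for 11 of 12 (median 0.16), with r = 0.073 and 0.27 over all 12 (-0.36 and 0.19 without the 2 farthest). Endothelial genes were higher for 9 of 10 (median 0.11), with r = 0.050 and 0.20 over all 10 (-0.100 and 0.16). Erythroid genes were higher for 7 of 7 (median 0.36), with r = -0.066 and 0.60 over all 7 (-0.11 and 0.84). The values without 2 arrays moved in both directions, also in sign.

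Notochord genes were higher for 4 of 5 (median 0.21), with r = 0.13 and 0.46 over 3 brighter genes (-0.11 and -0.28). Read after their values were seen, Shh, which per the study the hypothalamus also expresses, gave 0.54 and 0.77, and Nog -0.26 and -0.48. Neural crest genes were higher for 3 of 5 (median 0.022), with r = 0.48 and 0.48 over 4 brighter genes (0.091 and 0.15). Macrophage genes were higher for 5 of 7 (median 0.078), with r = -0.26 and -0.14 over 4 brighter genes (-0.38 and 0.13). In these small lists no r of a mean level that exceeded 0.4 stayed above it without the 2 farthest arrays.

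Genes of the ZEB and SNAIL families and other repressors of the epithelial state were higher for 5 of 6 (median 0.062), with r = 0.12 and 0.23 over all 6 (-0.23 and 0.26). These 6 genes did not go the same way, read after their values were seen. Zeb1 (-0.53 and -0.38) and Zeb2 (-0.61 and -0.44) fell as the epithelial level rose. Twist1 (0.31 and 0.29) and Twist2 (0.36 and 0.43) rose with it, and Snai1 gave 0.00015 and 0.20 and Snai2 0.17 and 0.065. Mammillary and hypothalamic markers were higher for 2 of 9 (median -0.16), with r = 0.10 and 0.13 over all 9 (0.11 and 0.10). This mean joins genes that went opposite ways, read after their values were seen. Rax (0.68 and 0.62) and Nkx2-1 (0.54 and 0.60) rose with the epithelial level, and Lhx5 (-0.16 and -0.49) and Otp (-0.17 and -0.33) fell. Pituitary primordium genes were higher for 2 of 5 (median -0.044). Read after its value was seen, Lhx3, a dimmer gene that the study lists as lower in the mutant, differed by -0.60 ± 0.30. Isl1 differed by -0.59 ± 0.38. It was the only brighter 1 of the 5 and gave r = 0.37 and 0.49 (0.15 and -0.17). No gene of the lists outside the 35 genes was called with the term for KO replicates 1 to 10.

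Outside all lists, 10568 brighter genes were ranked by their correlation with the epithelial level over the WT arrays, and the 8 closest were then read in KO replicates 1 to 10. The T-box repressor Tbx2 came first (r = 0.91 in WT and 0.61 in KO replicates 1 to 10), followed by Npnt, a matrix ligand of integrins (0.90 and 0.75), Sox8 (0.89 and 0.37) and Foxf1, a forkhead factor of visceral mesenchyme (0.88 and 0.87). Etl4 (0.87 and 0.14), Tsr3 (0.85 and 0.22), Rab36 (0.83 and 0.056) and B230219D22Rik (0.82 and 0.67) were the others. Of the 50 closest genes in WT 38% exceeded 0.5 in KO replicates 1 to 10, where 7.62% of all 10568 did. Chosen after their values were seen, the T-box gene Tbx3 had the highest value of all in KO replicates 1 to 10 (0.94, and 0.79 in WT), and Fzd5, a Wnt receptor, gave 0.84 and 0.82 in WT. Tbx3 was different by -1.098 ± 0.41 on the log2 scale in KO, with 30 of the 35 epithelial genes going the other way. These correlations were taken over 12 and 10 arrays with a mean over listed genes and are given without p-values.

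Embryo sex, read from Xist and Y-linked genes, was a contrast that the choice of the genes did not use. With 8 female and 4 male WT embryos, limma called 108 of 28940 clusters (0.373%) between the sexes and 0 of the 35 epithelial genes, of which 1 had an unadjusted p below 0.05, against 5.96% of all clusters. Among KO replicates 1 to 10, with 3 female and 7 male embryos, limma called 118 clusters (0.408%) and 0 of the 35, and 0 of the 35 passed unadjusted, against 6.38% of all clusters.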

How the data were processed

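Values were deposited by the authors as log2 expression made by robust multiarray averaging (RMA), and Affymetrix Expression Console 1.0 and affy in R 2.7.0 are named in their processing notes. In 10 arrays the deposited column also held cells outside the log2 range (14 in all, up to 10464), so these columns were taken as a score of unknown unit in those cells, which were set missing above 14 (0 in the genes reported). Of 35556 probe sets, 28940 clusters were tested, and symbols came from the platform annotation. Of the clusters tested 5841 had no symbol, and they are part of every share over all clusters. No batch adjustment by the authors is given in the sources used here.

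The genes and lists were chosen with earlier results of these data known. Limma 3.58.1 (R 4.3.3) was fitted on all 25 arrays with genotype and a term for KO replicates 1 to 10, with Benjamini-Hochberg adjustment over all clusters at 0.05, two-sided. It was tested on simulated data. Correlations, SDs and array means were computed within a set of arrays, and the number of arrays limits their precision. All 35 genes are named, with the 3 largest differences of the further epithelial list and the 8 genes closest to the epithelial level in WT, and others are said to be chosen later. Tissue lists covered further epithelial genes, pituitary primordium, repressors of epithelial genes, neural progenitors, mammillary and hypothalamic markers, mesenchyme, endothelium, erythroid cells, notochord, endoderm, neural crest and macrophages. Alternatives were genotype alone, WT with KO replicates 11 to 13 alone, the replicate number as a block, repeated quantile normalization, centred arrays, dim clusters left out, array weights, limma-trend, embryo sex and each array left out.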

Additional observations from a re-analysis of the deposited data

Results flagged for a closer look

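Hesx1 was at 3.59 (log2) on KO 10, while the other 9 arrays of KO replicates 1 to 10 reached at most 3.10. The gap took up 0.542 of the range of the 10 arrays, above the 95% critical value of Dixon's test for 10 values. It was the only 1 of the 35 genes set apart in this way, and chance sets apart about 1 in 20.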

How the results depend on the processing

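The direction of 25 of the 35 genes was the same under every alternative, and 10 changed sign under 1 or more, mostly without KO 12 (6 genes) or KO 13 (3 genes). With genotype as the only term, 13 of the 35 genes, 20 genes of the other lists and 4825 clusters were called. Array weights called 1 of the 35 (Tmem184a, adjusted p = 0.0475 in limma), 1 gene of the other lists and 31 clusters. As the list was selected on this contrast, that p-value is no support for Tmem184a. Leaving out single arrays called 0 to 1 of the 35 (Tmem184a without KO 3), 0 to 1 genes of the other lists and 0 (without KO 13) to 26 clusters (without WT 10), and moved the median of the repressors of epithelial genes between 0.014 and 0.21. The gene of the other lists was Foxb2 in each of these cases, and in centred arrays (1 gene, 12 clusters) and limma-trend (1 gene). Other counts of clusters were 1 after repeated quantile normalization, 4 without dim clusters and 15 with the mean of the 17 other brighter genes as a covariate, which was added after the data were seen. Without dim clusters the list medians were -0.59 for pituitary primordium, which is then Isl1 alone, and 0.33 for endoderm, then 3 genes (Sox17, Pax9 and Foxa1), and that of the epithelial genes was 0.32 over 21. Without dim genes the median correlation was 0.37 in WT and 0.64 in KO replicates 1 to 10, and the median SD in the latter 0.413. The cause of these shifts was not tested.

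Replicate numbers shared by KO and WT were checked as a pairing. Same-numbered arrays correlated with r between -0.33 and 0.43 once group means were removed. In 4 of 12 numbers r exceeded 0.1, and 1 array was closest to its own number, so no pairing was taken. With the replicate block 0 clusters were called, and the medians were 0.34 for repressors, 0.57 for mesenchyme, 0.53 for endothelium, 0.19 for endoderm and 0.82 for macrophages, and 0.38 for the 35 epithelial genes (0.20 without the block).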
